A study of Mus musculus with 6 samples.

Results

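The 77 genes described here are those whose symbol begins with Mrpl or Mrps followed by a digit, which name the proteins of the mitochondrial ribosome. They were chosen by symbol alone, without antisense or pseudogene entries and without a stretch of chromosome 15, from 24343 genes measured in NK cells. Splenic NK cells of female C57BL/6 mice were sorted and their RNA sequenced, with 3 libraries for each treatment. One group of mice had received cytokine complexes of IL-15 (IL-15C) and the other had received those of IL-2 (IL-2C). Such complexes carry the cytokine bound to another protein, which prolongs its action. Neither group was an untreated control, so each difference below is one between the responses to 2 related cytokines. The sources used here give no dose, time, age or carrier protein, and do not say whether the libraries came from separate mice. The p-values therefore measure the spread between these libraries, which may be technical. The cells had been sorted as NK1.1+ NKp46+ CD3- CD1d tetramer-, and all 8 NK cell markers examined were present, with a summed level of 9734 to 11153 FPKM per library.

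Mitochondria keep a small genome of their own and a dedicated ribosome that translates its messenger RNAs into core subunits of the respiratory chain. The RNAs of that ribosome are made inside the organelle, while every one of its proteins is encoded in the nucleus, made in the cytosol and imported. Some of these proteins descend from bacterial ribosomal proteins, and others were added later in evolution and are found only in mitochondria. IL-15 and IL-2 signal through shared receptor chains, and strong cytokine stimulation is known to raise mitochondrial activity in NK cells.

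None of the 77 genes differed between IL-15C and IL-2C at the threshold used, an adjusted p under 0.05. The test was limma's moderated test on log2(FPKM + 1), with Benjamini-Hochberg adjustment over all 9831 genes that had a mean of at least 1 FPKM. FPKM, fragments per kilobase of transcript scaled by library depth, was the unit of the deposited values. All 77 members were above that limit and were tested, with 0 higher and 0 lower in IL-15C. Over all tested genes, 6.44% were called, 1.72% as higher and 4.72% as lower. At an unadjusted p under 0.05, 1 member was higher and 12 were lower, together 16.9% of the members. Of all tested genes, 6.48% were higher and 20.4% lower by that measure, together 26.9%. The smallest adjusted p among the members was 0.0529, that of Mrpl2, in the same limma fit. Median scaling and quantile normalization called Mrps18b higher, common sum scaling did not, and leaving out IL-15C replicate 1 called 5 members lower, with values given beside these genes. Array weights, a limma setting that weights each library, called 1 member higher and 11 lower. The same setting called 440 and 1667 of all 9831 tested genes. The 95% intervals of all 77 members lay between -0.37 and 0.47 on the log2 scale. Those bounds correspond to a 1.29-fold lower and a 1.39-fold higher FPKM + 1 in IL-15C, so larger differences lay outside the interval of every member.

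The promoters of 4 members are printed here. Mrpl46 and Mrps11 share one promoter region, and Mrps18b and Mrpl2 had the smallest adjusted p above and below 0. Sequences are from RefSeq on GRCm38.p6, the build also called mm10, and run 5' to 3' on the gene's own strand from 250 bases before to 50 after the listed start. Capitals mark matches on either strand to 1 of 4 motifs, given by their letters: CACGTG (E-box), CCGGAAG (ETS), GCATGCG (NRF1) and AGATGGC (YY1). NRF1 and the ETS factor GABP are known regulators of nuclear genes for mitochondrial proteins, E-boxes are bound by MYC among others, and YY1 is a general promoter factor.
Mrpl46: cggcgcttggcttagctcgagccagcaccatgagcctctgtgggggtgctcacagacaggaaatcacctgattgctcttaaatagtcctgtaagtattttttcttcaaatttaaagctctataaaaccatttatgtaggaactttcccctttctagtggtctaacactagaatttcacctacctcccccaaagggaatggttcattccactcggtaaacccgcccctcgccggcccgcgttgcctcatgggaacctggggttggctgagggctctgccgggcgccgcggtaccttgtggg
Mrps11: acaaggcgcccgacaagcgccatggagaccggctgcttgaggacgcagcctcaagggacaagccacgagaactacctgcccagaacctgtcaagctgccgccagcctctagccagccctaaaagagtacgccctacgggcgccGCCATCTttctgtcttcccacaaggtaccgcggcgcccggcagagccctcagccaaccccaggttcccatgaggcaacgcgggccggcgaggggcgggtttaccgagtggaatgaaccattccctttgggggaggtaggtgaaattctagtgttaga
Mrps18b: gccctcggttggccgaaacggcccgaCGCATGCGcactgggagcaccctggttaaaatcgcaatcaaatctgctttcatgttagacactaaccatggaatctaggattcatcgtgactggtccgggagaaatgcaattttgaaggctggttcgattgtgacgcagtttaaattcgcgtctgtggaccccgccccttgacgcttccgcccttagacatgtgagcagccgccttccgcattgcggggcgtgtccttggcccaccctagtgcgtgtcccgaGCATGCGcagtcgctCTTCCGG
Mrpl2: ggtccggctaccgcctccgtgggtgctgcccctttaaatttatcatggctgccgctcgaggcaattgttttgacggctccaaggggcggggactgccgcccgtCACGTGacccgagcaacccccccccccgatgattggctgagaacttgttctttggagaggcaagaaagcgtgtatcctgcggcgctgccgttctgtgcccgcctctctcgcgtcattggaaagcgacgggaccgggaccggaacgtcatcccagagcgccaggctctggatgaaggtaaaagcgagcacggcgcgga
The Mrpl46 window lies at chr7:78783040-78783339 on the minus strand and the Mrps11 window at chr7:78782881-78783180 on the plus strand. They overlap by 141 bases, so the 3' part of each sequence is the reverse complement of the 3' part of the other. The Mrpl46 window held none of the 4 motifs, and the Mrps11 window held 1 match to YY1, on its opposite strand and outside the shared bases. The Mrps18b window, chr17:35916391-35916690 on the minus strand, held 3 matches to NRF1, of which 2 overlap on opposite strands, and 1 to ETS. The Mrpl2 window, chr17:46645987-46646286 on the plus strand, held 1 E-box.

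Promoter entries were found for 68 of the 77 members, 63 of them starting within 100 bases of the start in the deposited files. Those without an entry were Mrpl4, Mrpl13, Mrpl15, Mrpl19, Mrpl38, Mrpl54, Mrps28, Mrps34 and Mrps35. The ETS letters occurred in 24 members (35.3%), against 21.5% of the 7602 promoters of tested genes and 9.12% of all 27025 listed promoters. YY1 was found in 12 members (17.6%), against 8.27% and 6.45%. NRF1 matched in 8 members (11.8%), against 7.46% and 3.64%, and its letters can match both strands at overlapping positions. The E-box was present in 5 members (7.35%), against 10.7% and 7.24%. The median difference in log2(FPKM + 1) between IL-15C and IL-2C was -0.06 in members with ETS and -0.08 in members without it. With NRF1 it was -0.09 and without it -0.06, so members with and without these letters lay close together.

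**Figure D1:**
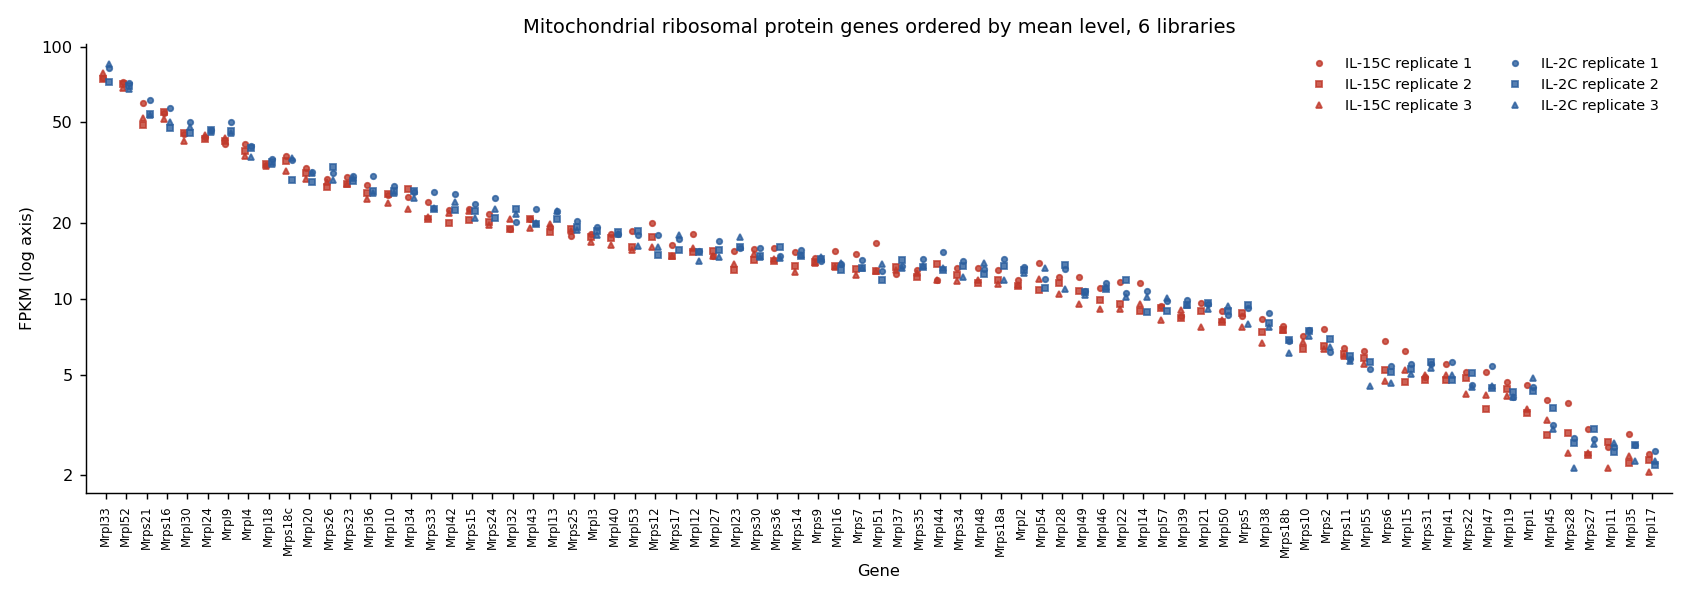
FPKM (log axis) of the 77 genes in each of the 6 libraries, with genes ordered by their mean; colours mark IL-15C and IL-2C and symbols the replicate. Levels run from a mean of 78.0 for Mrpl33 to 2.29 for Mrpl17, and the points of both groups lie over one another along the whole order.

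In FPKM, the members differed far more from each other than between the cytokines. Mean levels over the 6 libraries ran from 78.0 FPKM for Mrpl33 to 2.29 for Mrpl17, a 34.1-fold range, with a median of 13.5. In all, 7 members averaged at least 40 FPKM, 26 averaged under 10 and 10 under 5. The order was nearly the same in each library: Spearman's rho of the members' levels lay between 0.984 and 0.994 over the 15 pairs of libraries. Each gene's own length enters its FPKM in every library, which by itself raises this rho. Neighbours in the order mostly overlapped over the 6 libraries. Of 76 neighbouring pairs only 4 did not, namely Mrpl33 with Mrpl52, Mrpl52 with Mrps21, Mrpl9 with Mrpl4, and Mrpl4 with Mrpl18. Proteins of one ribosome are mostly needed in equal numbers, but the FPKM values, which are per transcript length, were not equal. Each gene's length was taken as the median of its GENCODE transcripts. The median over genes was 849.5 bases in the members and 1319 in the 9440 tested genes with a length. These are not the lengths behind the FPKM. In IL-15C replicate 1, Mrpl17 (869 bases) had 561 implied fragments at 2.41 FPKM, and Mrpl33 (773 bases) had 903 at 75.2. These 2 genes thus differed far less in implied fragments than in FPKM. The 34.1-fold range therefore depends on the lengths used for the FPKM, which the sources do not give. Across the members, rho between this GENCODE length and level was -0.26 and that between GC content and level 0.14.

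Mrpl33, a small protein of the large subunit that in bacteria lies close to the tRNA exit site, measured 75.2, 74.2 and 78.8 FPKM after IL-15C and 82.4, 72.5 and 85.0 after IL-2C. The IL-15C values lay inside the IL-2C range. Mrpl52, a mitochondria-specific protein of the large subunit, measured 72.2, 71.1 and 68.7 FPKM after IL-15C and 71.8, 69.5 and 67.65 after IL-2C. Mrps21, a bacterial-type protein of the small subunit, measured 59.4, 48.6 and 52.1 FPKM against 61.3, 54.1 and 53.4. Both genes overlapped between the groups, as did Mrps16, a small subunit protein at 51.6 to 54.9 FPKM after IL-15C and 47.4 to 57.0 after IL-2C. Mrpl30, the last of the 5 highest, did not overlap. It measured 45.1, 45.4 and 42.4 FPKM after IL-15C and 50.2, 45.5 and 47.9 after IL-2C, a log2 difference of -0.11 ± 0.05 (SE) with a limma adjusted p of 0.194. The highest IL-15C and the lowest IL-2C library of Mrpl30 were almost level.

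At the low end, Mrpl17, next to the exit tunnel, measured 2.41, 2.30 and 2.05 FPKM after IL-15C and 2.50, 2.19 and 2.27 after IL-2C. Mrpl35 measured 2.22 to 2.92 FPKM after IL-15C and 2.28 to 2.63 after IL-2C. Mrpl11, part of the base of the stalk, measured 2.12 to 2.70 FPKM and 2.47 to 2.67. Mrps27, a pentatricopeptide repeat protein, measured 2.40 to 3.04 FPKM and 2.66 to 3.04. All 4 overlapped between groups. These low values still rested on many fragments: the deposited intervals imply 69 to 3712 fragments per member and library, 23543141 to 27229145 per library in all. The counting error that they imply had a median coefficient of variation (CV) of 4.09% and reached 11.4% for Mrps28. The CV between libraries had a median of 6.60% after IL-15C and 5.85% after IL-2C. Mrps28 had the highest, 23.5% in IL-15C.

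The direction of the differences was mostly negative but close to that of all genes. Of the 77 members, 56 (72.7%) had a log2 difference below 0, as had 64.7% of all tested genes. The members' median was -0.07 and that of all tested genes -0.04. With each library scaled to a common median, the members' median was -0.02, that of all genes 0.00, and 44 of the 77 lay below 0. Without IL-15C replicate 3 the members' median was -0.03, like that of all genes. The 3 IL-15C values lay wholly below the 3 IL-2C values in 12 members and wholly above in 1, together 16.9% of the members. Among all tested genes, 33.3% had groups that did not overlap, 25.1% below and 8.15% above.

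**Figure D2:**
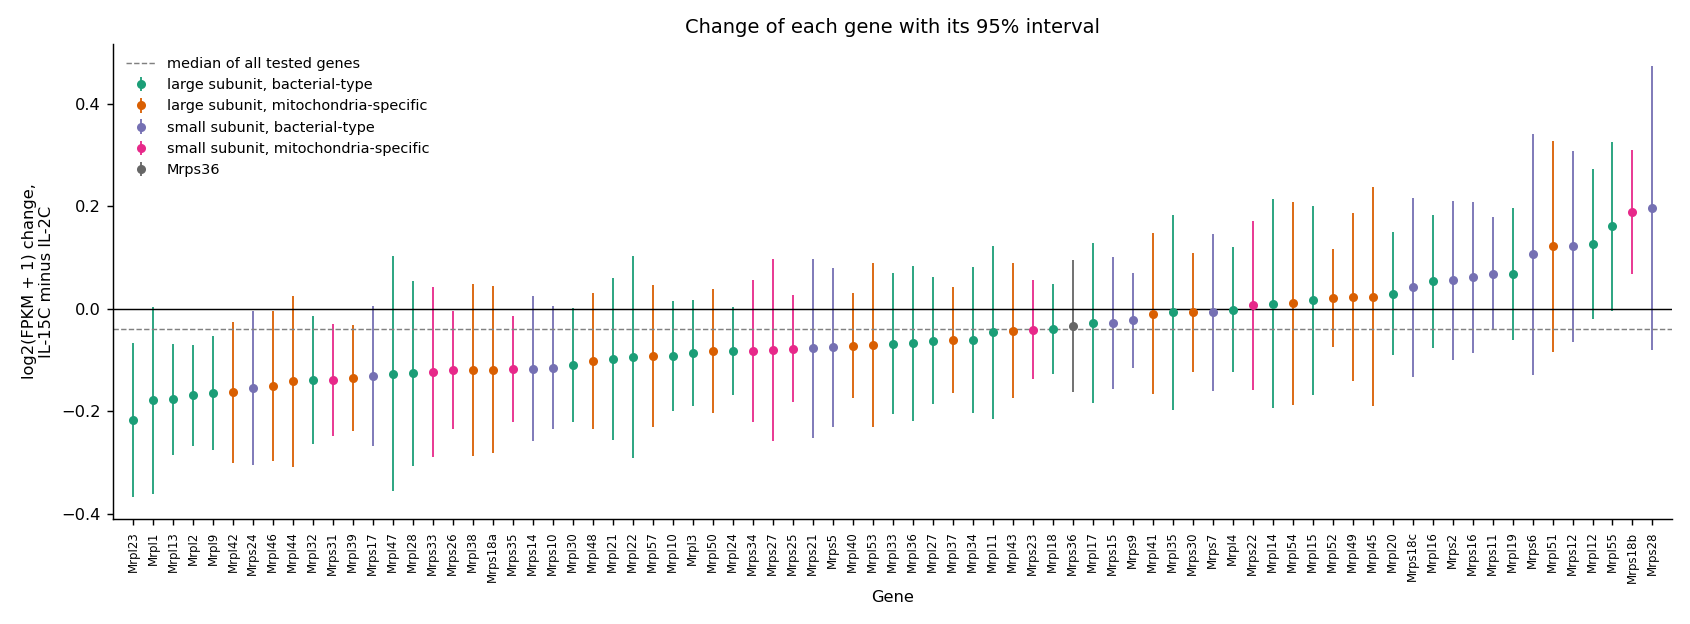
log2(FPKM + 1) difference of each of the 77 genes, IL-15C minus IL-2C, as a point with its 95% interval, coloured by structural class; the dashed line is the median of all tested genes. The points run from -0.22 (Mrpl23) to 0.20 (Mrps28), and no interval extends past -0.37 or 0.47.

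Summed over the 77 members, the level was 1402, 1317 and 1299 FPKM in IL-15C, a mean of 1339 ± 55.3 (SD, n = 3). In IL-2C it was 1448, 1363 and 1368, a mean of 1393 ± 47.8 (SD, n = 3). The ratio of the means was 0.961, and the groups overlapped, since IL-15C replicate 1 lay above 2 of the IL-2C libraries. As a share of all FPKM, the members made up 0.384%, 0.366% and 0.368% after IL-15C and 0.383%, 0.381% and 0.386% after IL-2C. On this scale IL-15C replicates 2 and 3 lay below every IL-2C library, and IL-15C replicate 1 among them. Bulk RNA cannot tell fewer cells that express a gene from less RNA per cell.

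The large subunit of the ribosome holds the peptidyl transferase centre and the tunnel through which the new chain leaves. The large subunit has 50 of the members by structure. They include Mrps30 and Mrps18a, which carry a small subunit name but sit in the large one. Their median log2 difference was -0.07, with 38 of 50 below 0. The 5 members with the most negative differences all belong to this subunit.

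Mrpl2 lies at chr17:46646248-46650132 on mm10 and encodes a conserved protein near the peptidyl transferase centre. It measured 11.9, 11.2 and 11.3 FPKM after IL-15C and 13.3, 12.98 and 12.7 after IL-2C, on 468 to 604 implied fragments. All 3 IL-15C libraries were lower than all 3 IL-2C libraries. The log2 difference was -0.17 ± 0.04 (SE), and the limma adjusted p of 0.0529 missed the threshold. With a stricter limit of a mean of at least 5 FPKM, fewer genes were tested and the adjusted p from limma was 0.0441. Over all the alternatives tried it ranged from 0.00886 to 0.158.

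Mrpl13, a bacterial-type protein of the large subunit at chr15:55534095-55557312, measured 19.3, 18.3 and 19.8 FPKM after IL-15C and 22.3, 20.7 and 22.3 after IL-2C. The groups did not overlap, and the log2 difference was -0.18 ± 0.05 (SE) with a limma adjusted p of 0.0591. It was called lower with array weights (limma adjusted p 0.0367) and with a replicate block (limma adjusted p 0.0461). Over all the alternatives tried the adjusted p reached 0.182 in limma. Mrpl9, a large subunit protein at chr3:94443336-94448708, measured 41.0, 42.2 and 43.3 FPKM after IL-15C and 50.4, 46.2 and 45.5 after IL-2C. Every IL-15C value was again the lower, with a log2 difference of -0.16 ± 0.05 (SE) and an adjusted p of 0.0756 from limma. Exons of Mrpl13 overlap those of Mtbp on the other strand, and exons of Mrpl9 overlap those of Oaz3. No source says whether the counting used strand, so reads from such overlaps cannot be assigned.

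Mrpl23 had the most negative difference of the 77. It encodes a protein beside the exit tunnel and lies at chr7:142533117-142540742. It measured 15.5, 12.98 and 13.7 FPKM after IL-15C and 15.9, 16.03 and 17.5 after IL-2C. The groups did not overlap, although IL-15C replicate 1 came close to the lowest IL-2C library. The log2 difference was -0.22 ± 0.07 (SE), with a limma adjusted p of 0.0790. Mrpl1, part of the mobile L1 stalk near the tRNA exit site, at chr5:96210115-96266727, measured 4.54, 3.52 and 3.66 FPKM after IL-15C and 4.47, 4.30 and 4.85 after IL-2C. Here IL-15C replicate 1 lay inside the IL-2C range, and the log2 difference of -0.18 ± 0.08 (SE) had a limma adjusted p of 0.195.

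Mrpl55 and Mrpl12 were the large subunit members with the most positive differences. Mrpl55, at chr11:59202486-59206135, measured 6.20, 5.82 and 5.50 FPKM after IL-15C and 5.25, 5.62 and 4.52 after IL-2C. The groups overlapped, with a log2 difference of 0.16 ± 0.07 (SE) and an adjusted p of 0.195 from limma. Mrpl12 forms the flexible stalk that recruits translation factors, and has also been reported to bind the mitochondrial RNA polymerase. It lies at chr11:120484669-120488754 and measured 18.1, 15.3 and 15.9 FPKM after IL-15C and 15.4, 15.3 and 14.1 after IL-2C. IL-15C replicate 1 stood above all the other libraries, and the log2 difference of 0.13 ± 0.06 (SE) had a limma adjusted p of 0.244.

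Within the stalk the 3 members did not lie on one side. Mrpl10, which with Mrpl11 forms the base on which Mrpl12 sits, measured 25.8, 26.1 and 23.9 FPKM after IL-15C and 27.9, 26.8 and 26.2 after IL-2C. The groups of Mrpl10 did not overlap, with a log2 difference of -0.09 ± 0.05 (SE) at a limma adjusted p of 0.250. Mrpl11 had a log2 difference of -0.05 ± 0.07 (SE), whose sign turned to 0.03 without IL-15C replicate 3.

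Around the exit tunnel, 5 of 6 members had a difference below 0, with a median of -0.09. Mrpl24 measured 43.7, 43.1 and 44.5 FPKM after IL-15C and 46.8, 46.7 and 45.7 after IL-2C. Its groups did not overlap, but the difference was only -0.08 ± 0.04 (SE) on the log2 scale, with a limma adjusted p of 0.206. Exons of Mrpl24 overlap those of Rrnad1 on the other strand. Mrpl22 measured 9.10 to 11.7 FPKM after IL-15C and 10.1 to 11.8 after IL-2C. Mrpl47 measured 3.66 to 5.11 FPKM and 4.41 to 5.405, and shares exon sequence with Actl6a and Ndufb5. Mrpl45, which anchors the ribosome to the inner membrane, had a difference near 0 at 0.02 ± 0.09 (SE). Its sign turned to -0.07 without IL-15C replicate 1 and to -0.02 without IL-2C replicate 3. The remaining 2 tunnel members, Mrpl17 and Mrpl23, are given above, and Mrpl17 changed sign after scaling to a common median.

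The central protuberance, the crest of the large subunit that contacts tRNA and the small subunit, had all 6 of its members below 0, with a median of -0.09. None of them was called, and Mrpl18 was at 0.01 after scaling to a common median. Mrpl18, whose bacterial relative binds 5S rRNA, measured 33.6 to 34.3 FPKM after IL-15C and 34.1 to 35.7 after IL-2C. Its exons overlap those of Tcp1 on the other strand. Mrpl40 measured 18.1, 17.4 and 16.4 FPKM after IL-15C and 18.1, 18.4 and 18.1 after IL-2C, so that its groups met without overlapping. Mrpl27 measured 14.7 to 15.5 FPKM and 14.7 to 16.9, Mrpl38 6.65 to 8.29 and 7.71 to 8.75, and Mrpl48 11.6 to 13.2 and 12.6 to 13.9. Mrpl46 had the most negative difference of the 6, at -0.15 ± 0.06 (SE), with a limma adjusted p of 0.174.

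Mrpl46 and Mrps11 are the head-to-head pair whose shared promoter is printed above. Mrpl46 lies at chr7:78775341-78783089 and Mrps11, a small subunit protein near the mRNA exit side, at chr7:78783131-78792988. Mrpl46 measured 11.1, 9.88 and 9.08 FPKM after IL-15C and 11.6, 10.9 and 11.1 after IL-2C. Mrps11 measured 6.40, 6.02 and 5.91 FPKM after IL-15C and 5.74, 5.91 and 5.69 after IL-2C. The members of this pair thus lay on opposite sides of 0, Mrps11 at 0.07 ± 0.05 (SE) with a limma adjusted p of 0.397. By GENCODE, exons of the 2 genes overlap on opposite strands. The positions given here are those of the deposited files, and by these the 2 genes do not overlap. Whether reads from the GENCODE overlap entered both values was not tested. Neither passed the test, both overlapped between groups, and the difference between the 2 genes was not tested.

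**Figure D3:**
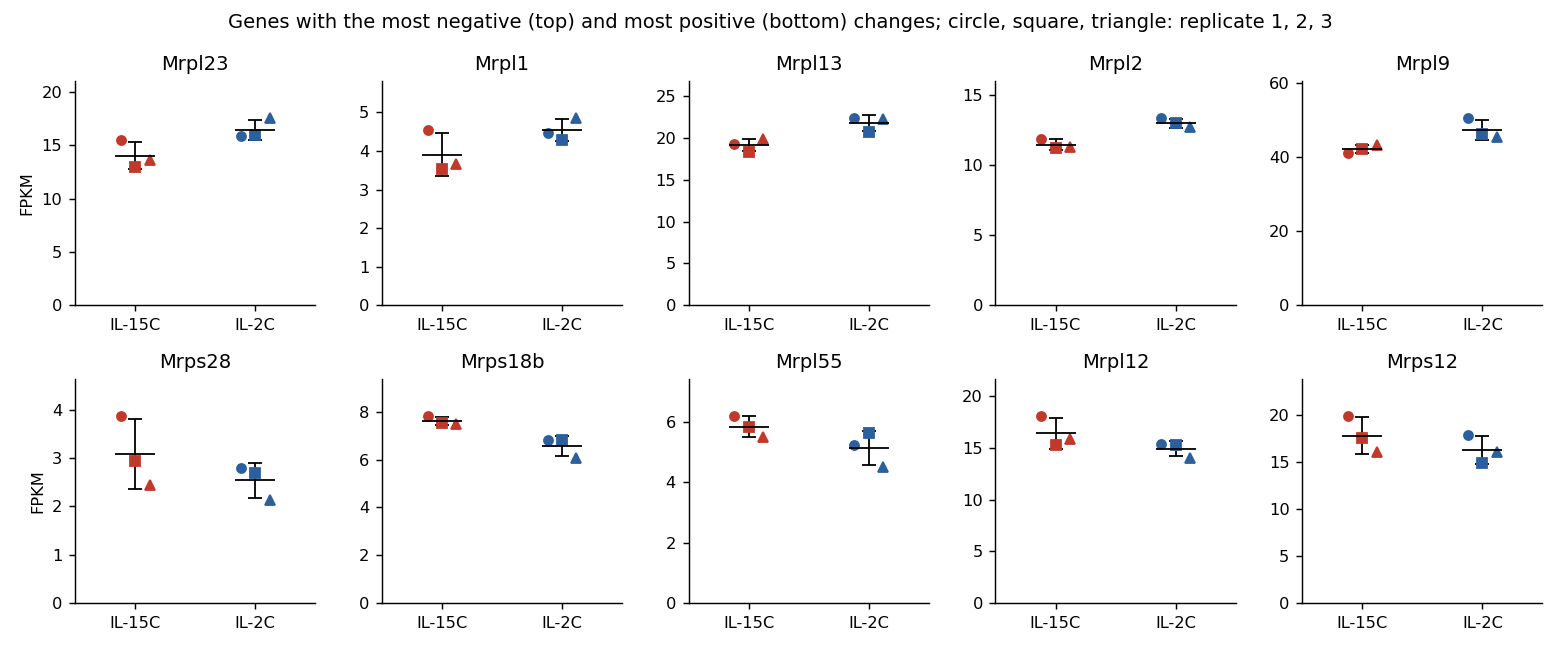
FPKM by library for the 5 genes with the most negative log2 difference (top) and the 5 with the most positive (bottom), in IL-15C and IL-2C; symbols mark replicates 1, 2 and 3, lines and bars give the mean ± SD, and each axis starts at 0. The groups of Mrpl2, Mrpl9, Mrpl13 and Mrpl23 are apart on the low side and those of Mrps18b on the high side, while the other 5 overlap.

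The small subunit reads the messenger RNA and pairs it with tRNA. It has 26 members by structure, with a median log2 difference of -0.06 and 17 of 26 below 0. The large subunit's summed FPKM was 2.02 ± 0.04 times that of the small subunit in IL-15C and 2.06 ± 0.04 times in IL-2C (SD, n = 3). Mrps36, which is counted by its symbol, is now regarded as a component of the oxoglutarate dehydrogenase complex and not of the ribosome. It measured 14.1 to 15.9 FPKM after IL-15C and 14.5 to 16.02 after IL-2C.

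Mrps18b was the only member whose IL-15C values all lay above its IL-2C values. It is 1 of 3 mammalian relatives of a single bacterial protein and lies at chr17:35910385-35916369. It measured 7.83, 7.54 and 7.51 FPKM after IL-15C and 6.81, 6.84 and 6.08 after IL-2C, on 268 to 323 implied fragments. The log2 difference was 0.19 ± 0.05 (SE), with a limma adjusted p of 0.0658. Scaling the libraries to a common median gave 0.23 with a limma adjusted p of 0.0275, and quantile normalization gave 0.24 with 0.0281. Scaling to a common sum did not call it. Over all the alternatives tried the adjusted p ranged from 0.0215 to 0.144 in limma. Exons of Mrps18b overlap an antisense gene, Gm16279. Its relatives did not stand apart. Mrps18a, in the large subunit, measured 13.03, 11.8 and 11.4 FPKM after IL-15C and 14.3, 13.5 and 11.8 after IL-2C. Mrps18c measured 36.7, 35.3 and 32.2 FPKM after IL-15C and 35.4, 29.6 and 36.3 after IL-2C. Both overlapped between groups, with limma adjusted p of 0.323 and 0.763, and the sign of Mrps18c turned to -0.05 without IL-2C replicate 2.

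Mrps28 had the most positive difference of the 77, 0.20 ± 0.12 (SE), with an adjusted p of 0.333 from limma. It lies at chr3:8802146-8923857 and measured 3.87, 2.94 and 2.44 FPKM after IL-15C and 2.79, 2.69 and 2.13 after IL-2C. The spread within IL-15C was wide, and 1 of its libraries lay inside the IL-2C range. Mrps12, which lies at the decoding centre, at chr7:28739641-28741781, measured 19.9, 17.5 and 16.1 FPKM after IL-15C and 17.9, 14.9 and 16.1 after IL-2C. These groups overlapped as well, with a log2 difference of 0.12 ± 0.08 (SE) and an adjusted p of 0.371 from limma. In the small subunit, Mrps31 and Mrps35, both mitochondria-specific, had groups that did not overlap and lay lower in IL-15C. Mrps31 measured 4.75 to 4.997 FPKM after IL-15C and 5.32 to 5.62 after IL-2C, with a limma adjusted p of 0.108. Mrps35 measured 12.2 to 12.97 FPKM and 13.4 to 14.4, with a limma adjusted p of 0.143. Among the mitochondria-specific members of the large subunit, the same held for Mrpl40 above, for Mrpl39, at 8.40 to 9.02 against 9.45 to 9.87 FPKM with a limma adjusted p of 0.103, and for Mrpl42, at 20.04 to 22.4 against 22.5 to 26.0 FPKM with 0.128.

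Divided by structural class, the 46 bacterial-type members had a median log2 difference of -0.06 and the 30 mitochondria-specific members -0.08. The latter class includes Mrps18a and Mrps18b, although both are relatives of a bacterial protein. The groups did not overlap in 7 of the 46 and in 6 of the 30, at most 20% of either class, against 33.3% of all tested genes. Within the small subunit, the medians were -0.01 for 16 bacterial-type members and -0.08 for 10 mitochondria-specific members. These medians were not compared by a test.

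**Figure D4:**
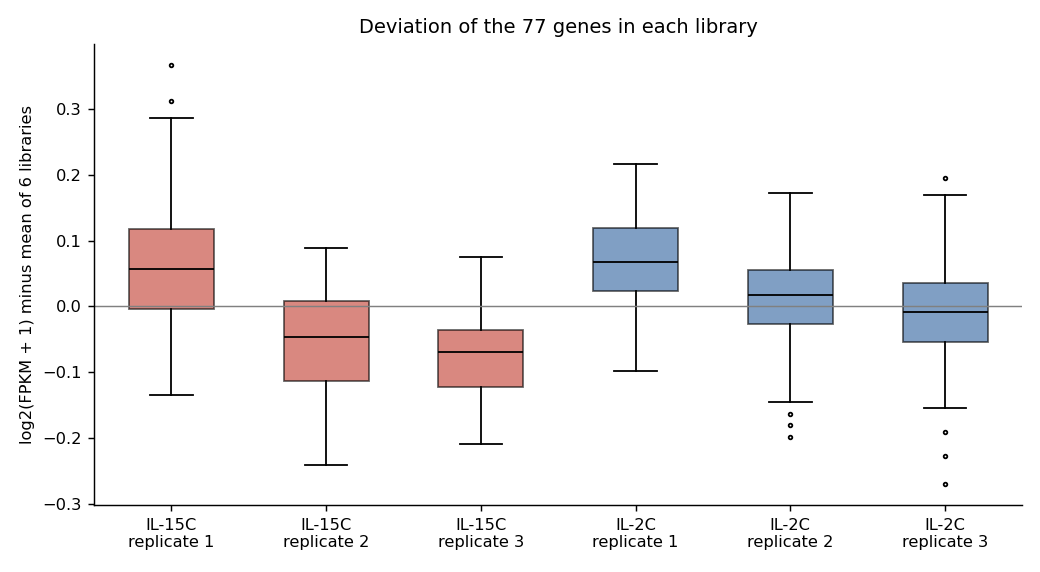
Deviation of the 77 genes from their own mean over the 6 libraries, in log2(FPKM + 1), as boxes (median and quartiles; whiskers to 1.5 times the interquartile range, points beyond) for each library. IL-15C replicate 1 sits above the other IL-15C libraries and was the highest of its group in 59 of the 77 genes.

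Most members were highest in replicate 1 of their group, but only in IL-15C was this well beyond the shift of all tested genes. IL-15C replicate 1 was the highest of its group in 59 of the 77 members, and IL-2C replicate 1 in 43. The same counts over all tested genes were not made. Of all 6 libraries, IL-2C replicate 1 was the highest in 32 members and IL-15C replicate 1 in 24. The median deviation of the members in IL-15C replicate 1 from their group mean was 0.08 on the log2 scale, against 0.02 for all tested genes. In IL-2C replicate 1 it was 0.04, against 0.03, and as a share of all FPKM the members were lower there (0.383%) than in IL-2C replicate 3 (0.386%). Within IL-15C replicate 1, the median deviation was 0.13 in the 16 members with a mean under 6 FPKM, and 0.04 in the 23 with at least 20 FPKM. IL-15C replicate 1 also held the highest summed level of erythroid markers, 33.7 FPKM against 1.86 to 5.70 in the others, and of granulocyte markers, 104 FPKM against 37.9 to 56.8. Its T cell markers were at 71.6 FPKM, against 50.5 to 57.9. Most of that sum was Cd3g, at 44.6 FPKM, and Cd3d, at 22.3. Cd8a, Cd8b1 and Cd4 were at no more than 0.077 FPKM in any library. B cell markers summed to 4.97 to 15.3 FPKM after IL-15C and 9.03 to 21.3 after IL-2C, and macrophage and monocyte markers to 21.7 to 31.0 and 17.4 to 25.3, both with overlap. Ighm and Ly6g of these marker lists were not in the tables used here, and none of the others was at 0 in all libraries. The part of any such cells in the members' values was not tested.

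Without IL-15C replicate 1, the fit called 5 members lower and 0 higher, where all tested genes had 5.85% lower and 1.79% higher. The 5 were Mrpl1, Mrpl2, Mrpl23, Mrpl46 and Mrps14, with limma adjusted p of 0.0343, 0.0394, 0.0190, 0.0403 and 0.0481. Their log2 differences were then -0.27, -0.19, -0.29, -0.22 and -0.19. Mrps14 measured 15.3, 13.5 and 12.7 FPKM after IL-15C and 15.6, 14.8 and 14.9 after IL-2C, so that IL-15C replicate 1 lay inside the IL-2C range. Over all the alternatives tried, their limma adjusted p reached 0.439, 0.158, 0.216, 0.432 and 0.593. Leaving out any other library called 0 members in either direction. Summed markers of cycling cells were 12.5 to 13.6 FPKM after IL-15C and 10.1 to 11.7 after IL-2C, without overlap. Of the 3 that were tested Top2a rose by 0.34 on the log2 scale (limma adjusted p 0.0158) and the others were not called. Ccna2 and Birc5 also lay higher after IL-15C without overlap, while Mki67 and Ccnb1 overlapped. Cdk1 went the other way, with a mean of 0.880 FPKM after IL-15C and 0.903 after IL-2C. The members' values are given beside these markers without a test of their relation.

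Many members share their start region with another gene. By GENCODE, 33 of the 77 (42.9%) had a protein-coding neighbour on the opposite strand starting head to head within 1000 bases, against 18.4% of 9143 tested protein-coding genes. The shortest distances were 26 bases between Mrpl54 and Apba3 and 29 bases for Mrps18c with Helq and for Mrps34 with Eme2. The starts of Mrpl36 and Ndufs6, a complex I subunit, overlapped by 29 bases. Of the 27 members whose neighbour was tested, 0 had a neighbour that was called, where 6.44% of all tested genes were called. With so few genes, 0 is near that share. Mrpl46 and Mrps11 count as each other's neighbour. The neighbours' median log2 difference was -0.04. Beside Mrpl2, its neighbour Klc4, which encodes a kinesin light chain, had -0.21 ± 0.06 (SE) and an adjusted p of 0.0706 from limma. Exons of 32 members overlap those of another annotated gene, a protein-coding one in 23 members, and the annotation lists 5 pseudogenes of the family. The members are spread over 17 chromosomes, with 10 of them on chromosome 11.

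The other genes of mitochondrial translation were taken from lists by function. Of 6 mitochondrial ribosomal proteins with other names, 1 was lower and 0 higher (16.7% called, against 6.44% of all tested genes). Ict1, which hydrolyses peptidyl-tRNA on stalled ribosomes and is built into the large subunit, measured 22.3, 23.2 and 24.0 FPKM after IL-15C and 26.8, 25.7 and 26.1 after IL-2C. It fell by 0.17 on the log2 scale (SE 0.04, limma adjusted p 0.0484). The call was kept in 4 of 16 alternatives and lost under all 3 other scalings, limma without the trend and no filter, with limma adjusted p of 0.0644 to 0.122 in these. Dap3, a GTP-binding protein of the small subunit, measured 7.64, 7.83 and 8.19 FPKM against 8.74, 8.80 and 8.33. Its groups did not overlap, and its limma adjusted p was 0.152.

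Among 22 tested assembly factors, 2 were lower and 0 higher (9.09% called, against 6.44% of all tested genes). Mterf3, of the mitochondrial transcription termination factor family and also needed for ribosome assembly, measured 14.8, 15.3 and 14.2 FPKM after IL-15C and 17.1, 17.6 and 17.0 after IL-2C. It fell by 0.21 on the log2 scale (SE 0.04, limma adjusted p 0.0312). Ngrn, needed for modification of the large ribosomal RNA, measured 13.4, 14.8 and 13.7 FPKM against 16.5, 17.2 and 15.6, and fell by 0.22 (SE 0.05, limma adjusted p 0.0445). In both genes every IL-15C library was below every IL-2C library. The call of Mterf3 was kept in 8 of 17 alternatives and that of Ngrn in 5 of 17. Over the 6 fits that leave out 1 library each, Mterf3 was called in 1, and Ict1 and Ngrn in 0, with limma adjusted p up to 0.120, 0.136 and 0.151.

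Of 15 tested translation factors, 0 were called in either direction, against 6.44% of all tested genes. At an unadjusted p under 0.05, 0 were higher and 1 lower (6.67%, against 26.9% of all tested genes). The smallest p belonged to Mtif3, an initiation factor at 4.98 to 5.46 FPKM after IL-15C and 5.49 to 5.81 after IL-2C (limma adjusted p 0.184). It was followed by Mtrf1, a release factor, at 1.27 to 1.55 and 1.43 to 1.77 FPKM (limma adjusted p 0.394). Of 16 tested mitochondrial tRNA synthetases, 1 was higher and 0 lower (6.25% called, against 6.44% of all tested genes). Lars2, the leucyl-tRNA synthetase, measured 122, 140 and 120 FPKM after IL-15C and 91.4, 92.8 and 94.3 after IL-2C. It rose by 0.45 on the log2 scale (SE 0.06, limma adjusted p 0.00993) and was called in 4 of the 6 fits without 1 library, with limma adjusted p up to 0.0544. Its level, a mean of 110 FPKM over the 6 libraries, lay far above the list's median of 6.10. Of 13 tested genes of mitochondrial transcription and its control, 0 were called. At an unadjusted p under 0.05, 2 were higher and 0 lower (15.4%, against 26.9% of all tested genes). Esrra, a nuclear receptor that drives mitochondrial genes, measured 19.9 to 21.3 FPKM after IL-15C and 18.0 to 19.1 after IL-2C (limma adjusted p 0.0781). It was called higher under median scaling, quantile normalization, array weights and removal of GC content and length trends, with limma adjusted p of 0.0253, 0.0319, 0.0456 and 0.0298. Over all the alternatives tried the highest was 0.206 in limma. Pprc1, a coactivator of NRF1, measured 5.75, 3.998 and 3.93 FPKM against 3.21, 3.72 and 3.26 (limma adjusted p 0.109). Both were higher in all IL-15C libraries, IL-15C replicate 1 standing apart for Pprc1.

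**Figure D5:**
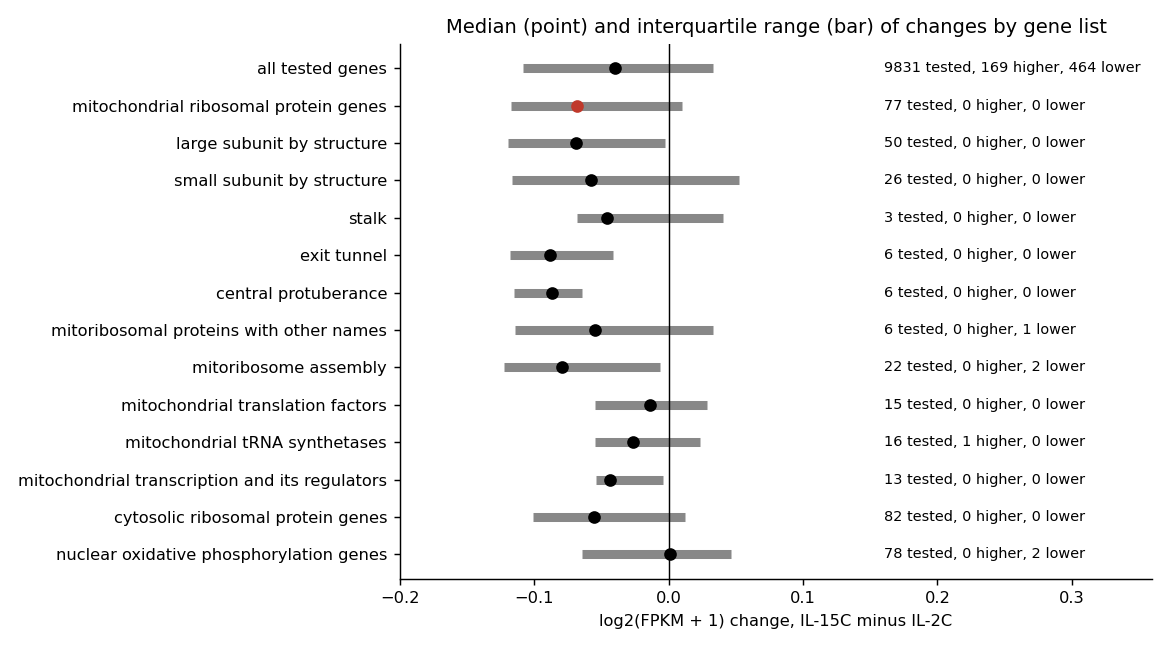
Median log2(FPKM + 1) difference (points) and interquartile range (bars) for the mitochondrial ribosomal protein genes, their classes and the related lists, IL-15C minus IL-2C. All the bars lie close to 0, with the mitochondrial ribosomal protein genes at -0.07, cytosolic ribosomal protein genes at -0.06 and all tested genes at -0.04.

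The genes for proteins of the cytosolic ribosome gave a like picture in the calls and the median, but less so in overlap. Of 82 tested cytosolic ribosomal protein genes, 0 were called, against 6.44% of all tested genes. At an unadjusted p under 0.05, 0 were higher and 11 lower (13.4%, against 26.9% of all tested genes). The groups did not overlap in 28.0% of them (2 above, 21 below), against 16.9% of the mitochondrial members and 33.3% of all tested genes. The median log2 difference of the 82 cytosolic genes was -0.06. Their RNAs made up 12.4% ± 0.24 of all FPKM after IL-15C and 12.7% ± 0.28 after IL-2C, against 0.373% ± 0.010 and 0.383% ± 0.002 for the mitochondrial ones (SD, n = 3). Nuclear genes of oxidative phosphorylation were chosen by symbol, and many of their proteins assemble with the products of the mitochondrial ribosome. Of 78 tested, 0 were higher and 2 lower (2.56%, against 6.44% of all tested genes), with a median log2 difference of 0.00. Atp5s, named as an ATP synthase subunit, measured 2.76, 2.88 and 3.24 FPKM after IL-15C and 4.61, 4.14 and 3.98 after IL-2C, and fell by 0.40 (SE 0.07, limma adjusted p 0.0189). Ndufa6, of complex I, measured 76.5, 73.2 and 73.6 FPKM against 92.1, 82.9 and 83.9, and fell by 0.21 (SE 0.05, limma adjusted p 0.0431). Atp5s was called in 3 and Ndufa6 in 1 of the 6 fits that leave out a library.

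The authors' deposited table of group values, estimated by Cuffdiff and scaled separately, gives an interval for each group. In the authors' deposited table the intervals of IL-15C and IL-2C overlapped for all 77 members, while 77 of 9828 tested genes had intervals apart. By this measure, groups apart were thus rare among all genes too. The log2 ratio of group FPKM in the authors' deposited table had a median of -0.03 over the members, against -0.0004 over the tested genes. Of the members, 45 lay below 0 and 32 above, with a range of -0.19 to 0.32. Mrpl23 and Mrps28 were the ends of that range too, and Mrps18b had 0.26 in the authors' deposited table.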

How the data were processed

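RNA of NK cells sorted from mouse spleen was sequenced in 6 libraries, 3 per group, and groups came from the sample titles. TopHat2 2.0.13, Cufflinks 2.2.1 and the mm10 genome were used, per the submitters' processing notes. The sources used here name neither the gene annotation nor whether strand was used. Per the file headers, the authors deposited FPKM with interval bounds, 1 table per library, and Cuffdiff's FPKM per group. FPKM values are not counts, and count models were not used.

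Repeated rows of 280 genes were added up, and 10 genes with a failed estimate in any library were dropped. No member was among either. Taking the interval as ± 2 SD of a Poisson count gives the implied fragments, which cover counting error only. The 9831 genes averaging at least 1 FPKM were tested with limma 3.58.1 in R 4.3.3, with an intensity trend on log2(FPKM + 1), two-sided, at a Benjamini-Hochberg adjusted p of 0.05. The 95% intervals are those of the fit. A difference on this scale understates that of low genes. The script was tested on simulated data.

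The members and the lists were chosen with earlier results of these data known. The genes named are called members, the 5 with the most positive and the 5 with the most negative difference, the 5 highest and 5 lowest levels, members of 3 structural sites, the called genes of each other list or its 2 with the smallest p, and the closest head-to-head neighbours. Others were named after their values were seen, among them the remaining members with groups apart, the relatives of Mrps18b, and Mrps14. Structural classes follow ribosome structures, from general knowledge. Transcript length, GC content, exon overlap and neighbours came from GENCODE vM21, and a promoter's first entry was used for genes with several. Gene positions are 1-based. Tables and plots were made in Python 3.11.15 (matplotlib 3.10.9, scipy 1.17.1, pandas 2.3.3, numpy 2.4.6). Alternatives were other pseudocounts (0.1 and 5), filters, scalings, limma settings, a replicate block and leaving out each library. Removal of GC content and length trends was added after seeing the data.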

Additional observations from a re-analysis of the deposited data

How the results depend on the processing

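Over all tested genes, 169 were called higher and 464 lower. No filter gave 6 and 9, median scaling 325 and 207, quantile normalization 307 and 269, array weights 440 and 1667, and removal of GC content and length trends 347 and 226. Leaving out 1 library each gave 14 to 176 and 15 to 575. Of the members, 0 higher became 1 (Mrps18b) under median scaling, quantile normalization, array weights and trend removal. Their 0 lower became 1 (Mrpl2) at a mean of at least 5 FPKM, where 442 of all 7556 tested genes were lower. With array weights 11 of the 77 members were lower, beside 1667 of all 9831 genes. Without 1 library each, 0 to 5 were lower, the 5 being without IL-15C replicate 1. The members' median kept its sign in all settings, but its value without 1 library ranged from -0.086 to -0.034, the latter without IL-15C replicate 3, where all genes had -0.031.

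Over all tested genes, the deviations of same-numbered libraries from their group means had r = -0.03, -0.16 and -0.02. With 3 libraries a group, such values cannot exclude a pairing, and the main test used none. A replicate block gave 171 higher and 346 lower over all genes and 0 and 1 (Mrpl13, limma adjusted p 0.0461) among the members, and 0.0624 for Ict1.

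Not all of the 77 members were followed singly through every alternative, and among those that were the sign turned for 11. Over all 77, 56 lay below 0 in the main fit and 44 after median scaling. More members thus turned than are given here. Under median scaling Mrpl17 had 0.0032, Mrpl18 0.0050, Mrpl35 0.026, Mrps30 0.036 and Mrps36 0.0096. Quantile normalization gave 0.010 for Mrpl17, 0.030 for Mrpl35 and 0.032 for Mrps30, and common sum scaling 0.0046 for Mrpl35 and 0.0083 for Mrps30. Trend removal gave 0.00043 for Mrpl11, 0.021 for Mrpl17, 0.0024 for Mrpl33, 0.046 for Mrpl35, -0.043 for Mrpl52 and 0.041 for Mrps30. Array weights gave -0.11 for Mrpl45 and -0.0038 for Mrpl54. Over the fits without 1 library each, the range was -0.094 to 0.028 for Mrpl11, -0.064 to 0.018 for Mrpl17, -0.090 to 0.051 for Mrpl35, -0.070 to 0.11 for Mrpl45, -0.081 to 0.089 for Mrpl54, -0.047 to 0.094 for Mrps18c, -0.040 to 0.030 for Mrps30 and -0.083 to 0.0064 for Mrps36. The causes were not tested. With 3 libraries a group, differences as small as those of most members were near the spread between libraries.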
